A study of Mus musculus with 28 samples.

Results

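The effect of an alcohol diet on liver tumors of mice that lack the interleukin-17 receptor A chain in hepatocytes was examined in 7 bulk RNA sequencing libraries, out of 28 in the series. The members were taken by their labels: the 4 tumors of alcohol-fed dHEP mice (mice dHEP-518 and dHEP-520, then dHEP-549 and dHEP-550, the order in which values are given) and the 3 tumors of chow-fed dHEP mice (mice dHEP-155, dHEP-164 and dHEP-165). All mice were C57BL/6, were injected with DEN (diethylnitrosamine, a liver carcinogen that is activated in hepatocytes) at 25 mg/kg at 2 weeks of age, and were then fed alcohol or chow for 18 weeks. In dHEP mice both copies of Il17ra are floxed and AlbCre, a Cre recombinase driven by the albumin promoter, deletes the gene in hepatocytes and in cells derived from them, so the stromal and immune cells of a tumor keep the receptor. FF mice carry the floxed gene without Cre, and their tumors (4 on alcohol, 3 on chow) and the non-tumor liver of the same dHEP mice (4 and 3) served for comparison. One label joins alcohol with high-fat feeding, the design text speaks of ethanol in liquid food, and the other arm is plain chow, so ethanol, fat and the form of the food cannot be told apart. Animal numbers of the diets do not overlap, so cohort and diet cannot be told apart either, and the labels give neither sex nor the hour of tissue collection.

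The 7 libraries held 12.1 to 17.1 M reads (M, 1000000 reads), estimated from the spacing of their lowest values, which puts 1 CPM (1 read per 1000000) at about 12 to 17 reads. Il17ra itself stood at 15.5, 28.2, 8.38 and 10.7 CPM in the 4 alcohol tumors and 29.4, 13.0 and 15.4 CPM in the 3 chow tumors, so the diets overlapped (exact two-sided permutation p = 0.49). FF tumors averaged 28.4 ± 5.60 CPM on alcohol and 26.9 ± 5.36 CPM on chow. Which exons are floxed is not given in the sources used here, so reads outside them do not test the deletion. Hepatocyte plasma proteins and transcription factors were abundant in all 7 tumors (summed 119183 to 234235 CPM), whereas the skeletal muscle list summed to at most 1.41 CPM. On the first principal component, the axis along which the 28 libraries differed most (50.3% of the variance), the alcohol tumors lay at 35.6, 33.6, -5.15 and 18.5. The chow tumors lay at 77.7, 50.0 and 30.4, and the non-tumor liver of the dHEP mice at -53.4 to -39.2. Tumor dHEP-549 thus lay nearest to non-tumor liver. The part of this order in the differences below was not tested. Of the 7 tumors, 2 stood apart in single markers. Alcohol tumor dHEP-549 had low levels of the tumor markers Afp (5.47 CPM, against 33.4 CPM or more in the other 6) and Gpc3 (0.473 CPM, against 1.66 CPM or more). The sum of the oncofetal list did not set it apart (306 CPM, against 263 CPM in chow tumor dHEP-165), and Scara5 of that list was higher in dHEP-549 than in the other alcohol tumors. Chow tumor dHEP-155 had the highest Lcn2 (2689 CPM, against 598 CPM or less in the other 6) and the highest sums of the biliary (3313 CPM) and monocyte (3630 CPM) markers. Counts below are therefore also given without both of these libraries.

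Alcohol feeding reaches a liver tumor by several routes. Ethanol is oxidised in hepatocytes by alcohol dehydrogenases and by the microsomal enzyme CYP2E1, which shifts the redox state and the handling of fatty acids. Dietary fat acts in part through the nuclear receptor PPAR alpha and dietary cholesterol through the sterol-controlled factor SREBP2. The load on the secretory pathway is read out by the unfolded protein response. IL-17A, which signals through Il17ra, induces chemokines and acute phase genes in hepatocytes, and in the dHEP mice this hepatocyte arm is removed under both diets.

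Of 13205 genes tested, 1 passed an adjusted p of 0.05 (0.00757% of those tested), the steroid dehydrogenase gene Hsd3b2, which rose on alcohol. No gene passed in the other direction (0 of 13205 by limma; by voom on estimated counts 0 in either direction). Leaving out 1 library moved these calls: without chow tumor dHEP-164 there were 13 higher and 40 lower, without alcohol tumor dHEP-518 there were 3 higher, without dHEP-550 there was 1 higher (Acaa1b in place of Hsd3b2), and without dHEP-520, dHEP-549, dHEP-155 or dHEP-165 there were none. In a fit of the 14 dHEP libraries of both tissues with the animal as a block, where the non-tumor libraries also enter the estimate of the spread, 49 were higher and 33 lower. At an unadjusted p under 0.05 there were 444 genes with higher values on alcohol (3.36%) and 997 with lower values (7.55%). In 295 genes (2.23%) every alcohol tumor lay above every chow tumor, and in 452 (3.42%) every one lay below. The median gene differed by -0.11 on the log2 scale, and after rescaling the libraries by the median of their ratios by -0.01, where the genes at an unadjusted p under 0.05 split into 828 higher and 814 lower (50.4% higher, against 30.8% before). Without tumors dHEP-549 and dHEP-155 the counts were 419 higher and 324 lower, and without dHEP-164 they were 342 and 1950. These shares are the background against which each group of genes below is read, and differences of single genes other than Hsd3b2 are given as values that did not pass. The 15 genes per direction named for small p were taken only from genes without overlap, so their lack of overlap follows from that choice. Members named from a list and genes named for an interaction were taken without that condition. In bulk tissue, fewer cells of a type and less RNA per cell cannot be told apart.

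Hsd3b2 belongs to a family of hydroxysteroid dehydrogenases that convert pregnenolone-type to progesterone-type steroids, and lies at chr3:98709255-98724543 (GRCm38, minus strand). Its level was 14.5, 29.3, 26.3 and 25.4 CPM with alcohol and 4.002, 5.62 and 5.80 CPM with chow. The groups did not overlap, and the lowest alcohol value (14.5 CPM, tumor dHEP-518) was still above the highest chow value (5.80 CPM). The log2 fold change was 1.99 ± 0.26 (SE), with an adjusted p of 0.034 (limma, Benjamini-Hochberg over all tested genes). The neighbouring copy Hsd3b3 stood at 65.1, 89.1, 79.3 and 119 CPM with alcohol and 28.3, 41.4 and 61.4 CPM with chow, a log2 fold change of 1.03 ± 0.29 that did not pass (adjusted p = 0.24). The male-biased member Hsd3b5 overlapped between the diets (0.367, 6.22, 4.71 and 0.439 CPM against 3.33, 13.0 and 1.39 CPM). These genes are close copies of each other, so the division of reads among them rests on the estimation step of the authors. In FF tumors Hsd3b2 differed by 0.39 ± 0.26 and in dHEP non-tumor liver by 0.28 ± 0.23. It had the smallest p of the diet-by-tissue interactions (1.71 ± 0.32), but with an adjusted p of 0.998. The call was lost without any 1 of tumors dHEP-520, dHEP-549, dHEP-550, dHEP-155 or dHEP-165 (adjusted p = 0.14, 0.099, 0.084, 0.16 and 0.076), while the fold change stayed between 1.85 and 2.20.

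Genes of cholesterol synthesis and uptake had the largest share of members with lower values at an unadjusted p under 0.05 among the 48 lists examined. Cells make cholesterol from acetyl-CoA by the mevalonate pathway, and when membranes hold enough sterol the factor SREBP2 is kept from the nucleus and its target genes are read less. Of the 23 genes of the list, 17 had lower values at an unadjusted p under 0.05 and none higher (all genes: 7.55% lower), 13 lay lower without overlap (3.42% of all genes), and the median log2 fold change was -1.07 against -0.11 over all genes. Without tumors dHEP-549 and dHEP-155 the count was 15, and without dHEP-155 alone 18.

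The stretch upstream of the start is shown for the genes of the list with the smallest p, Hmgcs1 (HMG-CoA synthase, an early step that commits acetyl units to the pathway) and Mvd (mevalonate diphosphate decarboxylase), from RefSeq on GRCm38.p6: 250 bases upstream of the annotated start, written 5′ to 3′ on the strand of the gene. Capitals mark the CCAAT box on either strand (CCAAT or its complement ATTGG), which the SREBP2 cofactor NF-Y binds, and in Hmgcs1 also the sterol regulatory element searched as TCACNCCAC. The Hmgcs1 stretch is chr13:119690101-119690350 (plus strand) and the Mvd stretch chr8:122443423-122443672 (minus strand).
Hmgcs1: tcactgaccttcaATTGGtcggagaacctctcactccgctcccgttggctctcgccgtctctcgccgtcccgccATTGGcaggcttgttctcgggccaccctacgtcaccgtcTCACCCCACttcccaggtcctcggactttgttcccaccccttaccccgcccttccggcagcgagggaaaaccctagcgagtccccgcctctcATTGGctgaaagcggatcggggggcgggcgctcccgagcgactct
Mvd: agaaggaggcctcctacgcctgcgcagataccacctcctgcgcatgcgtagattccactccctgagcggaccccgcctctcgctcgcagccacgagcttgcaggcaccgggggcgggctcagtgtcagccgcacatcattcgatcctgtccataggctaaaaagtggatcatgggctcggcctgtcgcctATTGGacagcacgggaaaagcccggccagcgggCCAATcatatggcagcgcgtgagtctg
The CCAAT box was found in 15 of the 15 list genes with a promoter sequence in the RefSeq table, against 37.5% of the 27025 genes of that table. TCACNCCAC was found in 1 of the 15, against 1.22%. A match is a description of the letters, not a measured binding site.

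Mvd was the list gene with the smallest p and stood at 13.2, 13.9, 15.7 and 17.2 CPM with alcohol and 42.3, 68.1 and 56.4 CPM with chow. The chow tumors averaged 55.6 ± 12.9 CPM (SD, n = 3) and the alcohol tumors 15.004 ± 1.76 CPM (n = 4), a log2 fold change of -1.80 ± 0.31 (adjusted p = 0.11). Hmgcs1 stood at 234, 313, 98.2 and 473 CPM with alcohol and 832, 1375 and 1140.5 CPM with chow, a difference of -2.17 ± 0.45 (adjusted p = 0.13). For both genes every chow tumor lay above every alcohol tumor, with tumor dHEP-549 lowest and dHEP-550 highest among the alcohol values of Hmgcs1. Further down the pathway, Cyp51 (lanosterol demethylase) read 155.4, 157.8, 91.2 and 229 CPM against 339.6, 561 and 355 CPM, a difference of -1.43 ± 0.37. Nsdhl, a sterol dehydrogenase of the same stretch, averaged 47.8 ± 13.0 CPM on alcohol against 118 ± 44.1 CPM on chow. Squalene epoxidase (Sqle) read 144, 124, 111 and 110.4 CPM against 260.0, 347 and 310.2 CPM, again with no overlap. The same order held for the regulator: Srebf2, which encodes SREBP2, read 31.9, 42.5, 24.0 and 39.7 CPM against 122, 45.4 and 58.8 CPM (difference -1.01, exact two-sided permutation p = 0.029, the smallest that 4 against 3 allows, and adjusted p = 0.24 in limma). The highest chow value of Srebf2 was that of tumor dHEP-155, and without it the difference was -0.60.

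The list was not uniform. Insig1, the sterol-responsive retention factor, averaged 430.0 ± 205 CPM on alcohol against 663 ± 486 CPM on chow, with overlap and a difference of -0.48 ± 0.46. Idi1, Fdps and Dhcr7 had differences of -1.54, -1.55 and -1.33 but overlapped (Idi1 197 CPM and Dhcr7 157.1 CPM in alcohol tumor dHEP-550). That tumor also had the highest sum over the list among the alcohol tumors (6026 CPM, against 3780 to 3900.0 CPM in the other 3). The chow tumors summed to 6357 to 9303 CPM. For Dhcr7, one of 6 genes examined singly by exact permutation, p was 0.086.

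Values of the same genes in the other settings lay on the same side. At an unadjusted p under 0.05 the list held 18 of 23 lower genes in FF tumors (4.6% of all genes, median -1.40) and 19 of 23 in dHEP non-tumor liver (4.07% of all genes, median -1.73), where 8 passed the adjusted test (0.092% of the 13039 genes tested there passed as lower). Mvd differed by -1.14 ± 0.31 in FF tumors and by -2.13 ± 0.30 in non-tumor liver. For the genotype interaction 0 of the 23 were at an unadjusted p under 0.05 (4.95% of all genes). For the tissue interaction 6 were (2.27% of all genes in that direction), each with a smaller negative difference in tumor than in non-tumor liver, and none passed.

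Genes of fatty acid oxidation stood higher on alcohol. Long-chain fatty acids enter mitochondria by the carnitine shuttle (Cpt1a, Slc25a20, Cpt2) and are shortened there by beta-oxidation, while very long chains and dicarboxylic acids are shortened in peroxisomes and by CYP4A omega-hydroxylases; PPAR alpha drives many of these genes. Of 26 list genes, 16 had higher values at an unadjusted p under 0.05 and none lower (all genes: 3.36% higher), the median was 0.69, and 6 lay higher without overlap (2.23% of all genes). The count was 10 without both dHEP-549 and dHEP-155, 10 without dHEP-520, 10 without dHEP-155, and 9 without dHEP-164. In the 250 bases upstream, the DR1 element, a repeat searched as the PPAR alpha site, was found in 0 of 18 list genes with a promoter sequence. It was found in 0.0407% of all genes of the RefSeq table. Lack of an exact match there does not test binding.

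**Figure D1:**
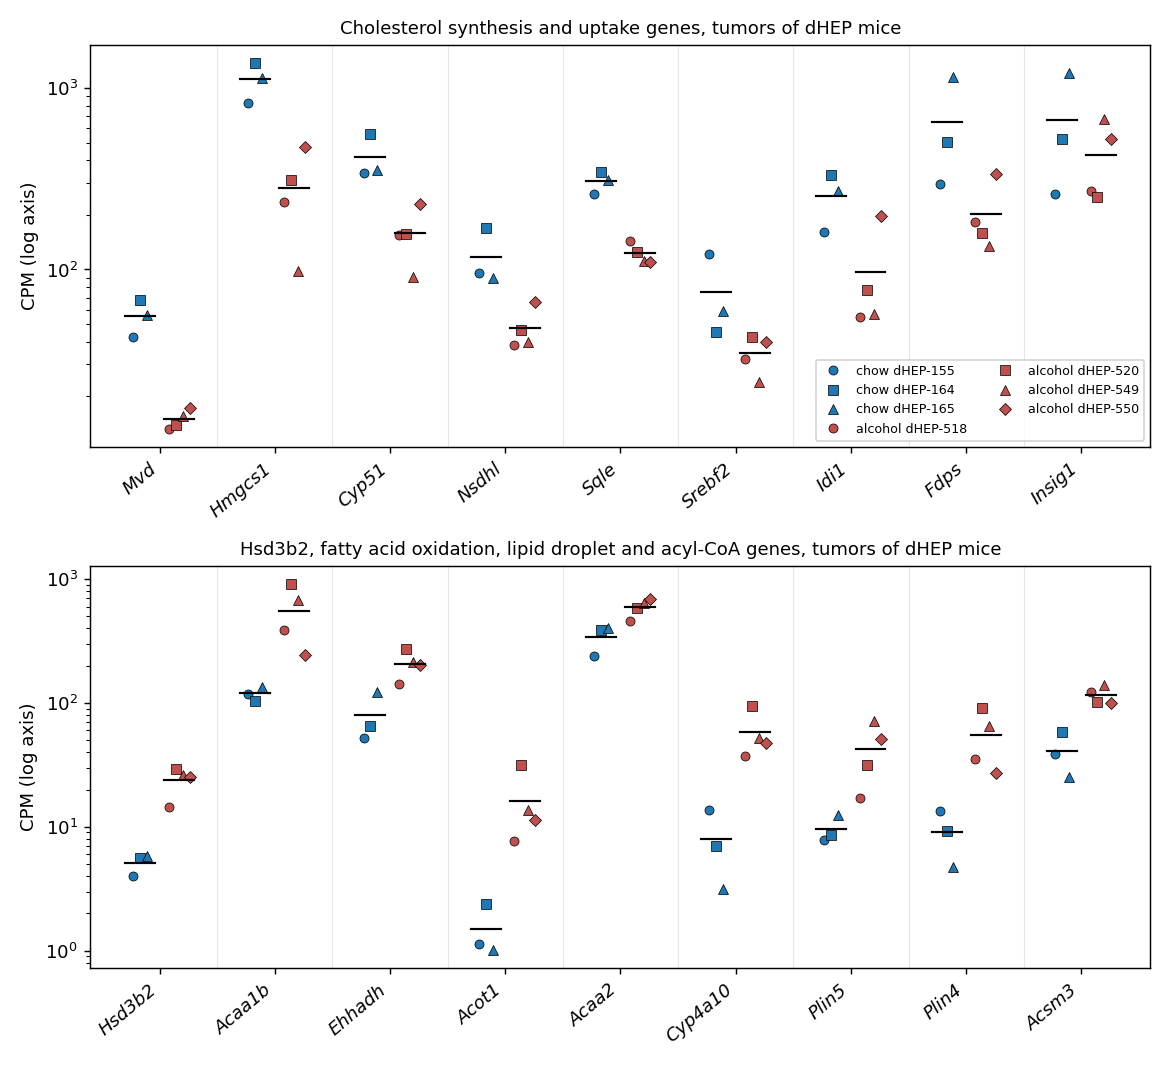
CPM on a log axis in each of the 7 dHEP tumors (blue, 3 chow; red, 4 alcohol; one marker shape per animal and a black bar for the group mean) for cholesterol genes (top) and for Hsd3b2 and fatty acid genes (bottom). The blue Mvd and Hmgcs1 points all lie above the red ones, Insig1 is mixed, and in the bottom panel all red points lie above the blue ones for each of the 9 genes.

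The members with the largest differences were Cyp4a10, Cyp4a14, Acot1, Acaa1b and Ehhadh. Acaa1b, a peroxisomal thiolase, stood at 386, 915, 675 and 246 CPM with alcohol and 118, 104 and 136 CPM with chow, a log2 fold change of 2.04 ± 0.35 (adjusted p = 0.11). Ehhadh, the peroxisomal bifunctional enzyme, read 141, 275, 215 and 201 CPM against 52.6, 65.0 and 124 CPM. The acyl-CoA thioesterase Acot1 read 7.69, 31.7, 13.7 and 11.4 CPM against 1.12, 2.39 and 1.01 CPM, a difference of 2.63 ± 0.53. In these 3 genes no alcohol tumor overlapped a chow tumor, and tumor dHEP-520 was the highest in each. The omega-hydroxylase gene Cyp4a10 averaged 57.8 ± 25.7 CPM on alcohol against 7.93 ± 5.27 CPM on chow, a difference of 2.81 ± 0.83 (adjusted p = 0.25). Acaa1b, Acot1 and Cyp4a10 have close copies in the genome, so their values share the limit given for Hsd3b2. In the mitochondrion, the thiolase Acaa2 read 463, 589.9, 643 and 687 CPM against 239, 389 and 404 CPM and differed by 0.81 ± 0.22, also without overlap. The receptor gene Ppara averaged 196 ± 37.8 CPM on alcohol against 109 ± 9.03 CPM on chow. Members that are fasting signals overlapped between the diets and had small mean differences: Pdk4, which spares glucose, by 0.20 ± 0.28, and the hormone gene Fgf21 by 0.11 ± 0.95.

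Neighbouring genes of acyl-CoA handling were among those named for small p and no overlap. Acsm3, a medium-chain acyl-CoA synthetase, stood at 122, 102, 141 and 101 CPM with alcohol and 38.7, 58.0 and 25.2 CPM with chow (1.56 ± 0.24, adjusted p = 0.067). Abhd15, an alpha/beta hydrolase family gene, read 15.8, 26.0, 27.2 and 20.4 CPM against 6.82, 7.96 and 7.41 CPM (1.45 ± 0.23, adjusted p = 0.067). Hsdl2, a peroxisomal protein of the short-chain dehydrogenase family, averaged 80.4 ± 22.6 CPM on alcohol against 34.6 ± 7.74 CPM on chow. Aqp9, the glycerol channel of hepatocytes, averaged 238 ± 83.9 CPM on alcohol against 73.8 ± 26.9 CPM on chow, and the omega-hydroxylase gene Cyp4f15 averaged 72.0 ± 34.0 CPM on alcohol against 19.7 ± 9.45 CPM on chow. None of these passed the adjusted test, and in each the alcohol tumors all lay above the chow tumors.

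Some genes of the lipid droplet stood higher on alcohol. Perilipins and FIT proteins shape the droplets in which hepatocytes store triglyceride. Of 14 genes tested, 4 had higher values at an unadjusted p under 0.05 and did not overlap (Plin5, Plin4, Fitm2 and Fitm1), none was lower, and the median was 0.59. Over all genes, 3.36% were higher at that p and 2.23% lay higher without overlap. Without tumor dHEP-549 the count was 7. Plin5, which ties droplets to mitochondria, stood at 17.0, 31.3, 71.2 and 51.5 CPM with alcohol and 7.86, 8.52 and 12.6 CPM with chow. Plin4 stood at 35.01, 91.1, 65.6 and 27.3 CPM with alcohol and 13.3, 9.28 and 4.73 CPM with chow. The tumors that were highest differed, dHEP-549 for Plin5 and dHEP-520 for Plin4. Plin2, the main coat protein of liver droplets, overlapped (1074, 1432, 449.9 and 521 CPM against 647, 479 and 384 CPM). Plin4 is also a fat cell gene, and in the fat cell list 6 of 7 tested genes lay above 0 (median 0.54), with Plin4 the 1 gene at an unadjusted p under 0.05. The fat cell list summed to 426 to 1455 CPM on alcohol and 305 to 943 CPM on chow, while the fat cell hormone Adipoq was listed at 0 in all 7 tumors. The part of fat cells in the droplet genes was not tested. Fatty acid synthesis, the opposing pathway, had 1 of 19 genes lower (Scd2, 312 ± 217 CPM on alcohol against 719 ± 121 CPM on chow) and none higher, with a median of -0.26. Of all genes 7.55% were lower. Srebf1, its regulator, read 139.5, 241, 359 and 245 CPM against 200.04, 104 and 292 CPM (exact p = 0.49).

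Of the genes of drug metabolism, Por, Nr1i3 and Nr1i2 had higher values on alcohol, and none passed. CAR (Nr1i3) and PXR (Nr1i2) are nuclear receptors that switch on hepatic cytochrome P450 genes, and Por encodes the reductase that supplies electrons to all microsomal P450 enzymes. Por stood at 163, 195, 216 and 280.4 CPM with alcohol and 115, 72.8 and 49.6 CPM with chow, a log2 fold change of 1.48 ± 0.26 (adjusted p = 0.12). Nr1i3 stood at 73.0, 154, 46.9 and 41.8 CPM with alcohol and 11.7, 14.998 and 3.98 CPM with chow, a difference of 2.79 ± 0.57. Nr1i2 averaged 66.3 ± 14.6 CPM on alcohol against 30.9 ± 12.1 CPM on chow. In all 3 the diets did not overlap. Of the 20 genes of the list, which also holds 16 Cyp genes and Ahr, 4 were higher and 1 lower at an unadjusted p under 0.05. Of all genes 3.36% were higher and 7.55% lower. The median was 0.03, with 10 genes above 0 and 10 below, and the receptor gene Ahr overlapped (0.67 ± 0.59). The CAR target Cyp2b10 read 1.81, 0.818, 1.85 and 0.0738 CPM against 0.955, 0.246 and 69.6 CPM, its highest value being that of a chow tumor. Among the other genes named for small p, the sulfotransferase Sult1d1 averaged 141 ± 66.5 CPM on alcohol against 33.8 ± 10.5 CPM on chow, the flavin monooxygenase Fmo5 576 ± 174 CPM on alcohol against 211 ± 49.5 CPM on chow, and the membrane progestin receptor Paqr7 54.4 ± 27.7 CPM on alcohol against 14.1 ± 0.911 CPM on chow. Ccdc57, a centrosomal coiled-coil gene, averaged 6.83 against 2.41 CPM.

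Of the 13 genes that handle ethanol, acetaldehyde and acetate, 5 had higher values at an unadjusted p under 0.05 and none lower, with a median of 0.19. Of all genes 3.36% were higher at that p. Adh1, the main hepatic alcohol dehydrogenase, stood at 1806, 2258, 2542 and 1984 CPM with alcohol and 856, 1462 and 1360.2 CPM with chow (0.83 ± 0.25). Cyp2e1, the ethanol-inducible microsomal oxidase, stood at 551, 1926, 967 and 1117 CPM with alcohol and 273, 405 and 329 CPM with chow (1.64 ± 0.70, adjusted p = 0.42). Both were higher in every alcohol tumor than in any chow tumor, and tumor dHEP-520 was highest for Cyp2e1. Acss3, an acyl-CoA synthetase of mitochondria, averaged 5.50 ± 2.83 CPM on alcohol against 1.32 ± 0.329 CPM on chow, and Adh7 averaged 18.98 ± 3.82 CPM on alcohol against 11.3 ± 1.04 CPM on chow. The count was 2 without tumor dHEP-164 or without both dHEP-549 and dHEP-155, and 3 without dHEP-520, dHEP-549 or dHEP-550. In FF tumors the list had 3 lower (4.6% of all genes) and no higher genes at an unadjusted p under 0.05. Of the 13, 3 had a positive genotype interaction at an unadjusted p under 0.05 (2.35% of all genes), none of which passed.

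In the bile acid list 5 of 22 genes had higher values at an unadjusted p under 0.05 and none lower (median 0.54), against 3.36% of all genes higher. Amacr, a racemase of bile acid side chain oxidation, stood at 64.3, 86.3, 84.2 and 147 CPM with alcohol and 34.2, 50.7 and 52.3 CPM with chow (1.002 ± 0.23). The phospholipid export pump Abcb4 averaged 329.5 ± 119 CPM on alcohol against 166 ± 51.4 CPM on chow, the FXR gene Nr1h4 92.7 ± 21.7 CPM on alcohol against 55.9 ± 24.1 CPM on chow, and the uptake carrier Slco1b2 401 ± 228 CPM on alcohol against 101 ± 24.1 CPM on chow. Cyp27a1, the sterol 27-hydroxylase, read 85.1, 169.7, 146 and 106 CPM against 49.7, 69.8 and 61.8 CPM. Amacr, Abcb4, Slco1b2 and Cyp27a1 did not overlap, and Cyp27a1 was among the genes with the smallest p of the tissue interaction (1.26 ± 0.29, adjusted p = 0.998). Also named there were Adtrp, a lipid hydrolase (0.77 ± 0.18), and the hydrolase gene Cmbl (1.43 ± 0.36), whose values in tumors averaged 65.1 against 39.6 CPM and 59.2 against 21.9 CPM. The efflux pump Abcc4 read 12.001, 28.6, 6.62 and 5.52 CPM against 190.1, 8.23 and 81.5 CPM. The bile acid count was 3 without dHEP-520, dHEP-549 or dHEP-155 and 1 without both dHEP-549 and dHEP-155.

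Some enzymes of the periportal and pericentral zones stood higher on alcohol. Periportal hepatocytes carry the urea cycle and amino acid breakdown, and pericentral hepatocytes, under Wnt signals, make glutamine. Hpd, of tyrosine breakdown, stood at 242, 259.6, 631 and 2862 CPM with alcohol and 88.0, 149 and 116 CPM with chow. Oat, a pericentral aminotransferase, stood at 74.5, 207, 72.5 and 1777 CPM with alcohol and 56.0, 56.8 and 19.2 CPM with chow. In both genes tumor dHEP-550 was far above the next sample, and the diets did not overlap. Among the alcohol tumors the periportal list summed highest in dHEP-550 (38428 CPM) and the pericentral list in dHEP-520 (3467 CPM, against 3196 CPM in dHEP-550). Of 15 urea cycle and periportal genes, 4 were higher at an unadjusted p under 0.05 and none lower (median 1.01), against 3.36% of all genes higher. Without tumor dHEP-550 the count was 2 and the median 0.43, without tumor dHEP-155 the count was 1, and without dHEP-520 it was 10. Of 15 pericentral Wnt targets, 3 were higher at that p (Notum, Oat and Cyp2e1, median 0.78), and 1 was without dHEP-520, dHEP-550 or dHEP-165. Notum, a feedback inhibitor of Wnt, averaged 14.2 ± 8.55 CPM on alcohol against 4.10 ± 2.08 CPM on chow, whereas glutamine synthetase (Glul) read 173, 603, 299 and 22.0 CPM against 223, 124 and 172 CPM with a difference of -0.05 ± 0.92.

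**Figure D2:**
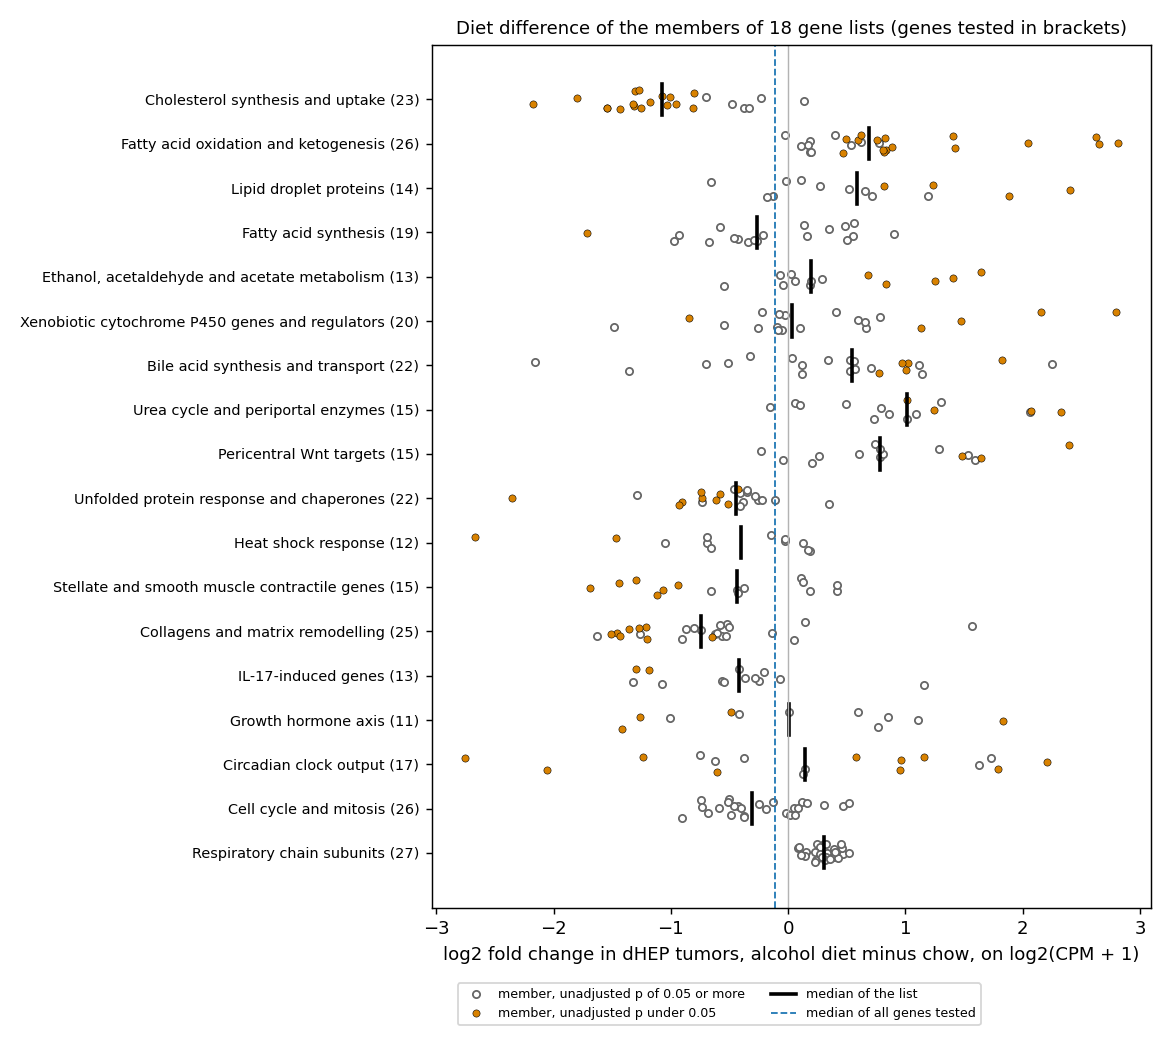
Log2 fold change (alcohol minus chow) in dHEP tumors for the members of 18 gene lists, with filled points for members at an unadjusted p under 0.05, a black bar for the median of the list and a dashed line for the median of all 13205 genes (-0.11). The 23 cholesterol genes lie mostly left of the line (median -1.07), the 26 fatty acid oxidation genes mostly right (median 0.69), and the 17 clock genes lie on both sides.

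Among the genes of smallest p with lower values on alcohol were 4 of the secretory pathway, Rrbp1, Ssr1, Bhlha15 and Hid1, none of which passed. Proteins for export are threaded into the endoplasmic reticulum, folded there by chaperones such as BiP (Hspa5), and when folding lags the factors ATF6, XBP1 and ATF4 raise the chaperone genes. Rrbp1, the ribosome-binding protein of the rough reticulum, had the smallest p of all genes with lower values. It stood at 401, 369, 353 and 342 CPM with alcohol and 957, 739 and 646 CPM with chow, a difference of -1.07 ± 0.17 (adjusted p = 0.067). Ssr1, a subunit of the translocon-associated complex, averaged 135 ± 16.8 CPM on alcohol against 228 ± 28.2 CPM on chow. Bhlha15 (MIST1), a factor that scales up the secretory apparatus, read 1.74, 1.08, 8.24 and 1.197 CPM against 22.0, 17.0 and 11.7 CPM, with tumor dHEP-549 the highest of the alcohol values. Hid1, a protein of secretory granule sorting, read 33.4, 22.0, 29.9 and 13.2 CPM against 86.1, 79.7 and 59.8 CPM. All 4 genes were taken from those without overlap, so each was lower in every alcohol tumor than in any chow tumor by that choice.

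In the list of 22 unfolded protein response genes and chaperones, 9 had lower values at an unadjusted p under 0.05 and none higher (7.55% of all genes lower). Without overlap 9 lay lower (3.42% of all genes). The median was -0.44. After median-of-ratios scaling the count was 5 (median -0.33), and without dHEP-549 and dHEP-155 it was 8. Hspa5 stood at 1178, 1078, 989.6 and 806 CPM with alcohol and 1402, 1847 and 2542 CPM with chow (-0.90 ± 0.27, adjusted p = 0.26). Dnajb9, a BiP co-chaperone, read 50.6, 42.7, 78.5 and 44.8 CPM against 94.6, 115 and 95.3 CPM, the disulfide isomerase Pdia3 averaged 226 ± 23.3 CPM on alcohol against 387 ± 103 CPM on chow, and the chaperone Hyou1 261 ± 41.8 CPM on alcohol against 431 ± 27.3 CPM on chow. All 4 of these genes were without overlap. The stress factors themselves were less uniform: Atf4 differed by -0.46 ± 0.22, Xbp1 by -0.11 ± 0.26 and Ddit3 (CHOP) by -1.29 ± 0.67, the last resting on chow tumor dHEP-165 (162 CPM against 11.8 and 17.0 CPM in the other chow tumors). Trib3, a target of ATF4 and CHOP, read 39.1, 21.5, 3.65 and 9.91 CPM against 70.5, 34.2 and 166 CPM.

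The stretch upstream of Hspa5 is shown because it holds the endoplasmic reticulum stress element, to which ATF6 binds together with NF-Y: 250 bases upstream of the annotated start (RefSeq, GRCm38.p6, chr2:34771840-34772089, plus strand, 5′ to 3′), with that element in capitals (CCAAT, any 9 bases, CCACG).
Hspa5: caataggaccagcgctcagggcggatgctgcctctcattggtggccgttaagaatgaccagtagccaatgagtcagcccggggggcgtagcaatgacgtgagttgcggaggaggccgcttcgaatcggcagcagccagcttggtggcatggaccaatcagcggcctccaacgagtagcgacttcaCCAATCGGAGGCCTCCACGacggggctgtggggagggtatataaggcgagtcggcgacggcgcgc
The element was found on either strand in 7 of the 19 list genes with a promoter sequence (Hspa5, Hsp90b1, Dnajc3, Pdia6, Calr, Canx and Creld2) and in 0.13% of the 27025 genes of the table.

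This group had opposite medians in the tumors of the 2 genotypes. In FF tumors 5 of the 22 genes were higher on alcohol at an unadjusted p under 0.05 (0.833% of all genes) and none lower, with a median of 0.40. Dnajb9 differed by 0.74 ± 0.23 there and by -0.93 ± 0.23 in dHEP tumors, and its interaction of -1.67 ± 0.32 had the smallest p of all 13205 genes, with an adjusted p of 0.64. For Hspa5 the values were 0.72 ± 0.27 and -0.90 ± 0.27 (interaction -1.62 ± 0.38). Of the 22 genes, 12 had a negative interaction at an unadjusted p under 0.05 (2.6% of all genes), and none passed the adjusted test. Rrbp1 (0.09 in FF tumors, interaction -1.17 ± 0.23) and Abhd15 (-0.18, interaction 1.63 ± 0.32) were also among the 5 genes of smallest p, as was Acta2. In dHEP non-tumor liver the list had 10 lower genes (4.07% of all genes) and none higher (median -0.43). In dHEP tumors, 2 of 12 cytosolic heat shock genes were lower at an unadjusted p under 0.05, against 7.55% of all genes. These were Hspa1a (8.09, 3.57, 0.948 and 0.925 CPM against 9.72, 11.96 and 81.4 CPM) and Hspa1b, and chow tumor dHEP-165 had the highest value of both.

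**Figure D3:**
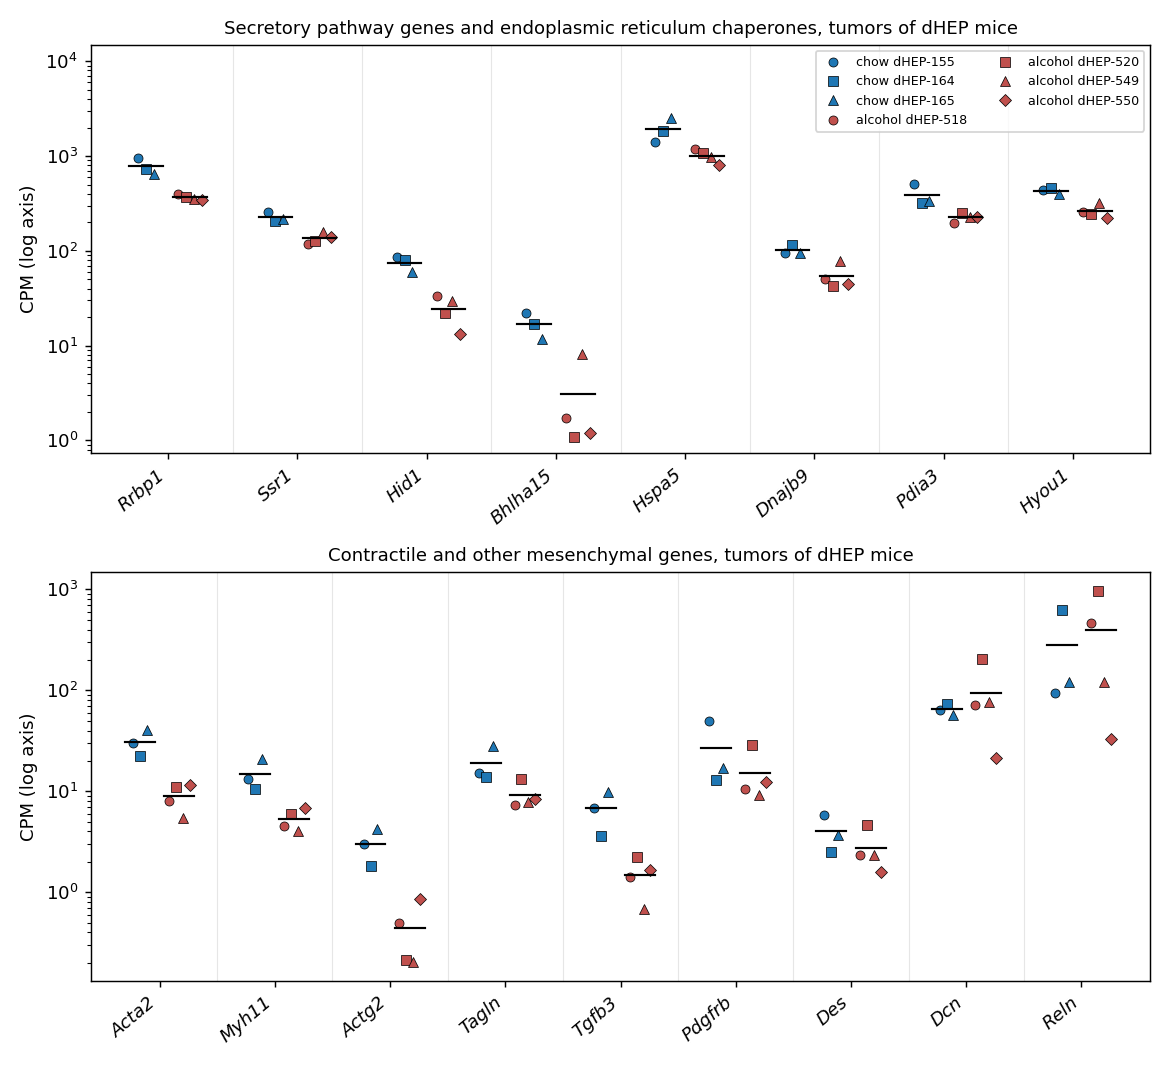
CPM on a log axis in each of the 7 dHEP tumors (blue, 3 chow; red, 4 alcohol; black bar, group mean) for secretory pathway genes and chaperones (top) and for contractile and other mesenchymal genes (bottom). Rrbp1 reads 342 to 401 CPM in the alcohol tumors and 646 to 957 CPM in the chow tumors, the first 5 genes of the bottom panel do not overlap, and Des, Dcn and Reln do.

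Some contractile genes of stellate and smooth muscle cells had lower values in the alcohol tumors. Quiescent stellate cells store vitamin A, and on activation they become myofibroblasts that express smooth muscle actin and lay down collagen. Of 15 marker genes tested, 6 had lower values at an unadjusted p under 0.05 and none higher, and 6 lay lower without overlap. Over all genes these shares were 7.55% and 3.42%. The median was -0.43, with 10 genes below 0 and 5 above. Acta2, smooth muscle actin, stood at 8.09, 11.02, 5.44 and 11.5 CPM with alcohol and 30.4, 22.3 and 40.6 CPM with chow, a difference of -1.69 ± 0.33 (adjusted p = 0.13). Smooth muscle myosin, Myh11, stood at 4.49, 6.02, 4.09 and 6.84 CPM with alcohol and 13.2, 10.6 and 20.97 CPM with chow (-1.30 ± 0.30). Actg2 read 0.497, 0.216, 0.203 and 0.865 CPM against 2.98, 1.81 and 4.19 CPM, at the lower limit of what this depth resolves. Tagln averaged 9.21 ± 2.76 CPM on alcohol against 19.1 ± 7.91 CPM on chow, Myl9 2.65 ± 1.196 CPM on alcohol against 6.48 ± 1.88 CPM on chow and Lmod1 0.261 ± 0.182 CPM on alcohol against 1.74 ± 0.516 CPM on chow. Other mesenchymal genes of the list overlapped between the diets: Des differed by -0.43 ± 0.29, Pdgfrb by -0.66 ± 0.43, Dcn by 0.13 ± 0.57, and the stellate gene Reln ranged from 33.3 to 968 CPM within the alcohol tumors. The sum of the list, which includes Reln, also overlapped (176 to 1520 CPM on alcohol with a mean of 694 CPM, 376 to 891 CPM on chow with a mean of 589.7 CPM). With a filter at a mean of 5 CPM, which removes Actg2 and Lmod1 among others, the count was 3, and without tumor dHEP-520 it was 9.

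Matrix genes had 8 of 25 lower at an unadjusted p under 0.05 and none higher (median -0.74), against 7.55% of all genes lower. Of the 8, 2 did not overlap (3.42% of all genes lay lower without overlap). These were the basement membrane collagens Col4a1 (98.3, 145, 73.7 and 180.4 CPM against 472, 184 and 319 CPM) and Col4a2 (65.0 ± 27.4 CPM on alcohol against 189.9 ± 88.4 CPM on chow). Mmp12, a macrophage elastase, lay higher on alcohol without overlap (1.57 ± 0.92, unadjusted p above 0.05). The count of lower genes was 3 without tumor dHEP-155 (median -0.25), 15 without dHEP-520, 5 without dHEP-518, and 1 without both dHEP-549 and dHEP-155. Fibrillar Col1a1 read 5.43, 32.4, 9.79 and 27.7 CPM against 260.2, 14.1 and 30.3 CPM, so its chow mean rested on tumor dHEP-155. Tgfb3, a growth factor of mesenchymal cells, read 1.41, 2.23, 0.675 and 1.66 CPM against 6.85, 3.62 and 9.86 CPM without overlap. In FF tumors Acta2 differed by 0.46 ± 0.33, with an interaction of -2.15 ± 0.46 (adjusted p = 0.64), and 6 of the 15 contractile genes had a negative genotype interaction at an unadjusted p under 0.05 (2.6% of all genes), none passing.

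The summed markers of other cells overlapped between the diets. The summed endothelial list read 373 to 1000.3 CPM on alcohol and 589 to 805 CPM on chow, with 0 of 21 genes at an unadjusted p under 0.05. Of all genes 3.36% were higher and 7.55% lower at that p. Kupffer cell genes summed to 156.9 to 814 CPM and 293 to 379 CPM (1 of 13 higher, median 0.44). For T and NK cells the sums were 6.05 to 36.1 CPM and 7.84 to 66.7 CPM (0 of 14, median -0.65). For monocytes and recruited macrophages they were 173 to 1155 CPM and 203 to 3630 CPM (1 of 16 higher and 2 lower). The median of the monocyte list was -0.28, with 7 genes above 0 and 9 below. In that list Gpnmb, a glycoprotein of lipid-laden macrophages, lay higher on alcohol without overlap (2.03 ± 1.09, unadjusted p above 0.05). These counts moved when 1 tumor was left out. Without dHEP-550, 5 endothelial and 6 Kupffer cell genes were higher. Without dHEP-165, 7 T and NK cell genes and 4 monocyte genes were lower, and without dHEP-520, 3 and 6 were. Tumor dHEP-520 was the highest alcohol tumor in each of these sums and dHEP-550 the lowest, and chow tumor dHEP-155 exceeded both other chow tumors in the T cell and monocyte sums. Biliary and progenitor markers summed to 95.1 to 1065 CPM and 254 to 3313 CPM, and 0 of 18 hepatocyte plasma protein and factor genes were at an unadjusted p under 0.05 (median -0.04). Their part in the differences above was not tested.

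Of the genes that feed back on cytokine and growth hormone signals, 3 of the SOCS family had lower values on alcohol. SOCS proteins are induced by JAK-STAT signals and switch the receptors off; Socs3 answers to interleukin-6, and Socs2 and Cish to growth hormone. Socs3 stood at 7.20, 10.998, 3.99 and 11.8 CPM with alcohol and 45.7, 32.3 and 15.3 CPM with chow, a difference of -1.72 ± 0.37 (adjusted p = 0.15). Socs2 read 9.60, 9.70, 4.39 and 3.06 CPM against 13.8, 18.98 and 21.6 CPM and Cish 2.21, 2.75, 3.67 and 6.32 CPM against 7.54, 9.26 and 13.3 CPM. No alcohol tumor reached a chow tumor in any of the 3. In the growth hormone list, whose median was 0.01 with 6 genes above 0 and 5 below, 3 of 11 genes were lower (Socs2, Cish and Stat5b) and 1 higher at an unadjusted p under 0.05. Of all genes 7.55% were lower and 3.36% higher. The higher gene was Igfbp2, an insulin-like growth factor binding protein, at 293, 361, 286 and 564 CPM with alcohol and 52.6, 155.2 and 124 CPM with chow. MAPK feedback genes had 2 of 16 lower and none higher (median -0.25). Gadd45b, a stress gene induced by NF-kB and TGF-beta, read 2.15, 2.52, 1.15 and 1.40 CPM against 4.05, 6.36 and 11.8 CPM. Genes induced by IL-17 had 2 of 13 lower and none higher (Ccl2 and Cxcl1, both overlapping; median -0.42), and Lcn2 overlapped (exact p = 0.91). The caspase gene Casp2, one of the 6 genes tested singly, averaged 11.4 ± 2.15 CPM on alcohol against 11.7 ± 4.95 CPM on chow (exact p = 0.97).

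The remaining genes named for small p and lower values on alcohol came from several processes. Pla2g12b, a secreted phospholipase-like protein needed for lipoprotein loading, differed by -0.63 ± 0.13 with a narrow spread (44.6, 39.5, 38.2 and 39.2 CPM against 56.2, 64.3 and 68.7 CPM). Dhrs9, a retinol dehydrogenase, averaged 11.3 ± 4.82 CPM on alcohol against 49.8 ± 13.6 CPM on chow. Chmp7, of the nuclear envelope repair complex, averaged 39.0 ± 5.97 CPM on alcohol against 70.2 ± 11.6 CPM on chow, Tceal8 17.0 ± 2.17 CPM on alcohol against 39.3 ± 2.77 CPM on chow and Fam117a 1.75 ± 0.838 CPM on alcohol against 5.21 ± 0.935 CPM on chow. None passed, and in each the chow tumors all lay above the alcohol tumors, which was a condition for naming them.

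Clock genes differed in both directions. In the core loop, BMAL1 (Arntl) with CLOCK or NPAS2 activates Per, Cry, Nr1d and the output factors Dbp, Tef and Hlf through E-boxes, and the NR1D proteins repress Arntl; levels of these messages therefore depend on the hour of collection and on feeding times. Of 17 genes, 6 had higher and 4 lower values at an unadjusted p under 0.05 (all genes: 3.36% and 7.55%), and 5 and 2 did not overlap. Arntl stood at 0.745, 2.23, 0.946 and 2.79 CPM with alcohol and 37.0, 7.47 and 14.7 CPM with chow, a difference of -2.76 ± 0.68 (adjusted p = 0.20). Ciart, a repressor of BMAL1, stood at 24.0, 15.5, 34.1 and 26.7 CPM with alcohol and 1.55, 7.65 and 6.35 CPM with chow, a difference of 2.21 ± 0.55. Arntl was thus lower and Ciart higher in every alcohol tumor. Tef averaged 208 ± 28.4 CPM on alcohol against 69.4 ± 40.8 CPM on chow, Hlf 30.6 ± 5.94 CPM on alcohol against 15.3 ± 3.79 CPM on chow and Clock 55.9 ± 9.65 CPM on alcohol against 85.2 ± 10.4 CPM on chow, all without overlap. Dbp did not overlap either (111, 99.8, 67.8 and 119 CPM against 7.83, 51.4 and 55.0 CPM), though its p was above 0.05. Chow tumor dHEP-155 was at the extreme for Arntl (37.0 CPM), Npas2 (25.01 CPM) and Dbp (7.83 CPM), and without it the counts were 3 and 2. Without both dHEP-549 and dHEP-155 they were 4 and 1.

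The stretch upstream of Ciart is shown because it carries the E-box CACGTG (in capitals) more than once: 250 bases upstream of the annotated start (RefSeq, GRCm38.p6, chr3:95882229-95882478, minus strand, 5′ to 3′).
Ciart: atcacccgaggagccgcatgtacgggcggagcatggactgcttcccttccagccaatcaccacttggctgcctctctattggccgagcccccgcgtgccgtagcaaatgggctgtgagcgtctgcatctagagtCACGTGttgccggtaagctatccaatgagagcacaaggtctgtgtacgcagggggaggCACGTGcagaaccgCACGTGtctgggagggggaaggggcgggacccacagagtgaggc
CACGTG, which reads the same on both strands, was found in 5 of the 15 clock genes with a promoter sequence (Per1, Cry1, Tef, Ciart and Bhlhe41) and in 6.86% of all genes of the table. The ROR/REV-ERB element, searched as the site of the NR1D proteins, was found in 0 of the 15 and in 0.211% of all genes of the table. Lack of an exact match in 250 bases does not test binding.

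The clock list had 4 higher and 2 lower genes at an unadjusted p under 0.05 in FF tumors (0.833% and 4.6% of all genes). In dHEP non-tumor liver it had 6 and 2 (1.46% and 4.07% of all genes), and there Clock passed the adjusted test (-0.90 ± 0.15, adjusted p = 0.032). Arntl differed by -1.93 ± 0.68 in FF tumors and by -2.69 ± 0.52 in non-tumor liver. No clock gene was at an unadjusted p under 0.05 for either interaction. The hour of collection is not given in the sources used here, and its part in these differences was not tested.

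**Figure D4:**
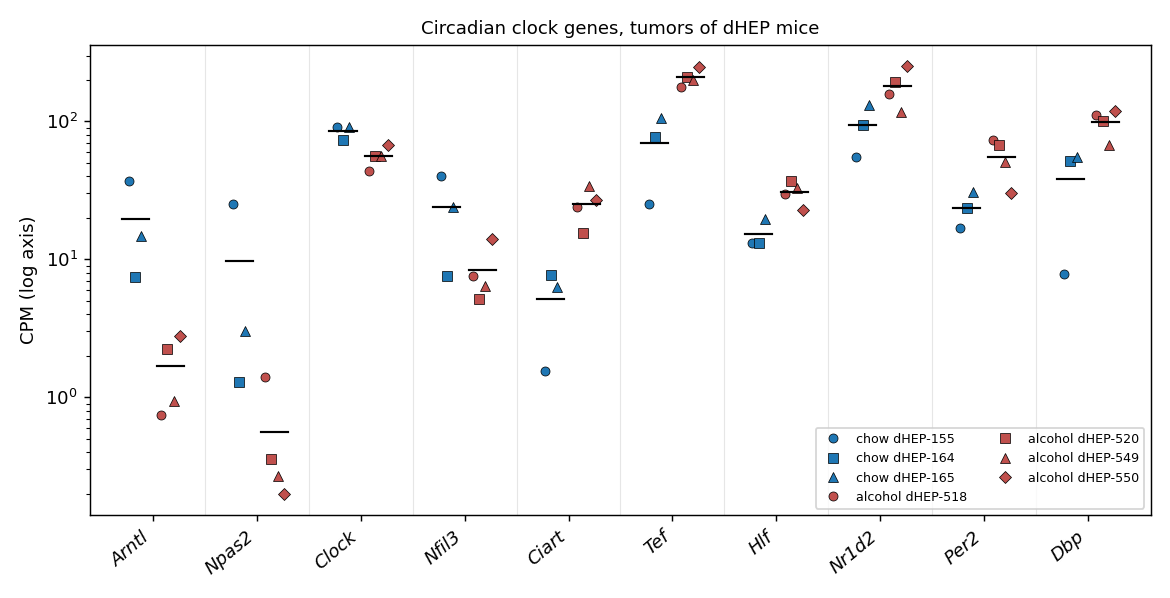
CPM on a log axis in each of the 7 dHEP tumors (blue, 3 chow; red, 4 alcohol; black bar, group mean) for 10 clock genes. Arntl reads 0.745 to 2.79 CPM in the alcohol tumors and 7.47 to 37.0 CPM in the chow tumors, and Ciart, Tef, Hlf and Dbp lie on the other side without overlap.

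Several large groups showed few or no genes at an unadjusted p under 0.05 (all genes: 3.36% higher and 7.55% lower). Cell cycle and mitosis genes had 0 of 26 (median -0.31), cytosolic ribosomal proteins 0 of 26 (median -0.13) and interferon response genes 1 of 26 lower (median -0.10). Leaving out 1 tumor moved these counts. Without dHEP-550, 12 cell cycle genes were lower (median -0.67), and without dHEP-520, 5 interferon genes were (median -0.36). Over all genes, 988 were lower at that p without dHEP-550 and 1499 without dHEP-520. The largest leave-one-out count of lower ribosomal protein genes was 3. Respiratory chain subunits were all above 0 (27 of 27, median 0.30) with none at an unadjusted p under 0.05, and after median-of-ratios scaling 8 were, without dHEP-518 there were 7, without dHEP-520 there were 3, and without dHEP-165 there were 10. Over all genes the higher counts in these fits were, in that order, 828, 650, 358 and 597. Among D cyclins and CDK inhibitors 1 of 11 was higher, Ccnd1 (cyclin D1), at 189, 247, 184 and 261 CPM with alcohol and 95.5, 133 and 126 CPM with chow without overlap. Oncofetal and tumor markers had 2 of 18 lower (Scara5 and Spink1) and a median of -0.74, which was 0.59 without tumors dHEP-549 and dHEP-155.

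The diet differences of dHEP tumors were set against those of the other settings by interaction tests over all genes. No gene passed the genotype interaction (smallest adjusted p = 0.64, Dnajb9; 653 of 13205 at an unadjusted p under 0.05, 4.95%) or the tissue interaction (smallest adjusted p = 0.998, Hsd3b2; 544 of 13039, 4.17%). In FF tumors no gene passed for diet (718 at an unadjusted p under 0.05, 5.44%), and in dHEP non-tumor liver 14 did (0.107%). The fatty acid oxidation list had 8 of 26 genes with a positive genotype interaction at an unadjusted p under 0.05 and 4 with a positive tissue interaction (2.35% and 2.27% of all genes), and its median was 0.19 in FF tumors and 0.34 in non-tumor liver. Nr1i3, outside that list, differed by 2.79 ± 0.57 in dHEP tumors and -0.64 ± 0.57 in FF tumors (interaction 3.43 ± 0.80, adjusted p = 0.64). Leaving out dHEP chow tumor dHEP-164 brought 2 genes past the threshold for the genotype interaction, and no other alternative fit of either interaction brought any.

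**Figure D5:**
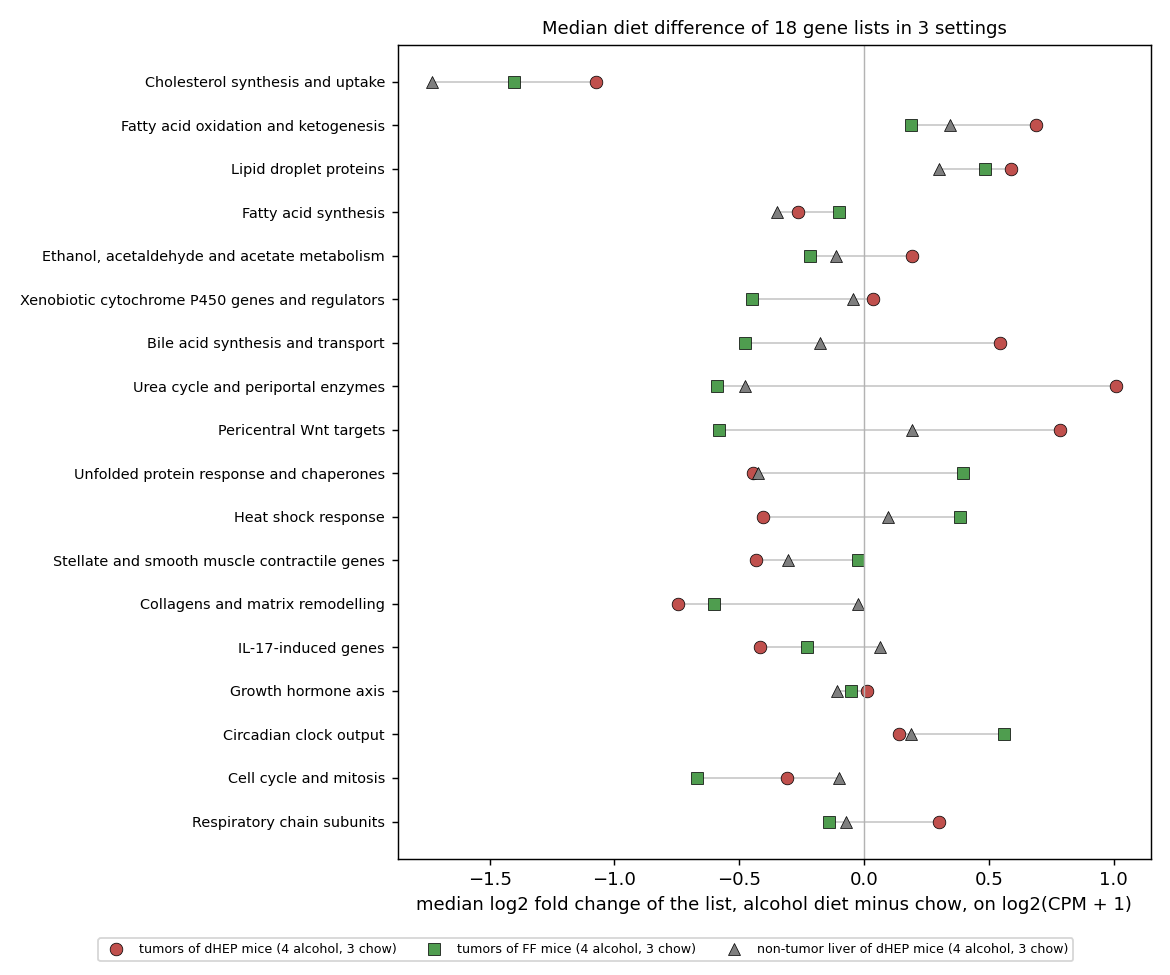
Median log2 fold change (alcohol minus chow) of 18 gene lists in dHEP tumors (red circles), FF tumors (green squares) and dHEP non-tumor liver (grey triangles), 4 against 3 libraries in each. The 3 medians of the cholesterol list lie together at -1.07, -1.40 and -1.73, and those of the unfolded protein response list lie at -0.44 and -0.43 in dHEP mice and 0.40 in FF tumors; no gene passed an interaction test.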

How the data were processed

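The 28 libraries, 1 per animal and tissue, were poly(A) or total RNA (the labels name both) of mouse liver. Reads were aligned with STAR 2.5.1a and estimated per gene with RSEM 1.3.0 on GRCm38, per the submitters' processing notes, and the authors deposited 1 table of CPM (counts per 1000000 reads) for 22187 Ensembl genes. Whole reads could not be recovered from it, so no test on the original counts was run, and voom was run only on counts estimated from the spacing of low values. Symbols came from GENCODE M21 (21653 genes matched).

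Values were taken as log2(CPM + 1), so fold changes of low genes are understated. Genes that reached 1 CPM in 3 or more libraries of a fit were kept. The diet difference was the alcohol minus chow contrast in a limma 3.58.1 fit (R 4.3.3, trended empirical Bayes) of the 14 tumor libraries in 4 groups, with Benjamini-Hochberg adjustment over all genes tested and a threshold of 0.05. The genotype interaction came from the same fit, and the tissue interaction from the 14 dHEP libraries. Tumor and non-tumor liver of a dHEP mouse share an animal, and their deviations from the group means correlated between -0.11 and 0.26, so the animal was a block in the alternative. On simulated data for the diet difference (13205 genes), limma recovered 92.9% of 112 genes changed by 2 on the log2 scale and 98.9% of 88 changed by 4, with 6 false calls. The simulation drew normal noise independently for each gene and changed only genes with a mean log2(CPM + 1) above 3. It checks the fit and does not give the share of real changes that these tumors would reveal.

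The members and the 48 gene lists (798 genes, 15 not in the table) were chosen with earlier results of these data known. Named genes were the 15 per direction of largest change or smallest p with a mean of at least 5 CPM and no overlap, up to 4 members of smallest p per list, 6 single genes (Il17ra, Lcn2, Srebf1, Srebf2, Dhcr7 and Casp2, by exact permutation over samples) and 5 genes per interaction; a few genes that this rule named are not reported here. All other genes named (among them Afp, Gpc3, Hsd3b3, Hsd3b5, Insig1, Idi1, Fdps, Cyp4a10, Ppara, Pdk4, Fgf21, Plin2, Cyp2b10, Abcc4, Glul, Hspa5, Atf4, Xbp1, Ddit3, Myl9, Lmod1, Des, Dcn, Reln, Col1a1, Tef, Dbp, Npas2, Cyp4a14, Mmp12 and Gpnmb) were chosen after their values were seen. Alternatives changed the pseudocount, filter, scaling, weights, fitted libraries and left-out tumors; voom on estimated counts and the dHEP fit without block were added after seeing the data.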

Additional observations from a re-analysis of the deposited data

Results flagged for a closer look

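In a group of 4, a tumor was singled out when its gap to the nearest of the others took up most of the range of the group. This was examined in the 4 alcohol tumors for 137 named genes and 10 list sums, and 17 were singled out. The cut-off flags about 1 in 20 by chance for independent, normally distributed values. Here it was applied to CPM without logs, and many of the genes were chosen from these data. The number singled out can therefore not be set against that rate. The 3 chow tumors are too few for it. Tumor dHEP-550 was the highest for the cholesterol list as a whole (6026 CPM), for Dhcr7 (157.1 CPM) and Idi1 (197 CPM), for the amino acid enzymes Hpd (2862 CPM) and Oat (1777 CPM), and for Lmod1 (0.532 CPM, near the detection limit). Tumor dHEP-520 was the highest for Acss3 (9.70 CPM), Fitm1 (18.8 CPM), Fgf21 (41.2 CPM), Ddit3 (27.1 CPM) and Pdgfrb (28.8 CPM). Tumor dHEP-549 was the highest for Bhlha15 (8.24 CPM) and Scara5 (4.999 CPM) and the lowest for Ccdc57 (5.88 CPM). Tumor dHEP-518 was the highest for Npas2 (1.41 CPM) and Spink1 (17.0 CPM). The female-biased gene Cyp17a1 was highest in tumor dHEP-550 (1157 CPM).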

How the results depend on the processing

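Hsd3b2 kept its direction in all 17 alternatives (log2 fold change 1.79 to 2.20) and lost its call in 10 of them. The number of genes called higher was 0 with no filter on low values, with sample weights, in the 7 dHEP tumor libraries alone, without tumors dHEP-549 and dHEP-155, and with voom on estimated counts. Leaving out 1 tumor gave 0 to 13 higher and 0 to 40 lower calls, and 342 to 650 higher and 428 to 1950 lower genes at an unadjusted p under 0.05. That count was 828 higher with median-of-ratios scaling, 283 higher with sample weights, 481 lower in the 7 libraries alone and 324 lower without dHEP-549 and dHEP-155.

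No paired analysis was possible because no animal number is shared between the diets. With tumor and non-tumor liver of the same animal as a replicate block (14 dHEP libraries) 49 genes were higher and 33 lower, and without the block 50 and 35, so the block itself changed little; it left the tissue interaction with 0 calls.

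Cholesterol members lower numbered 15 to 18 when 1 tumor was left out. The fatty acid oxidation count was 9 with weights, 10 in the 7 libraries alone, 10 without dHEP-549 and dHEP-155, and 9 to 15 when 1 tumor was left out. Without dHEP-549 and dHEP-155 the counts were 7 for lipid droplet, 2 for ethanol, 1 for bile acid, 1 for collagen and 1 for lower clock genes. With weights they were 2 for ethanol, 2 for bile acid, 2 for higher clock and 2 for lower clock genes, and with voom 2 for lower clock genes. The unfolded protein count was 5 with median-of-ratios scaling and the contractile count 3 with a filter at a mean of 5 CPM. When 1 tumor was left out the ranges were 3 to 7 for droplets, 2 to 5 for ethanol, 3 to 7 for bile acid, 6 to 12 for unfolded protein, 6 to 9 for contractile, 3 to 15 for collagen, 3 to 6 for higher and 2 to 4 for lower clock genes. Srebf2 ranged from -1.30 to -0.60, and 4 against 2 or 3 against 3 tumors cannot reach an exact p under 0.05. The genotype interaction had 0 to 2 calls. The cause of these shifts was not tested.

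The libraries' 12.1 to 17.1 M reads make genes near 1 CPM rest on about 12 to 17 reads.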

Other observations

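Some further genes of hepatocyte metabolism and of plasma proteins differed by diet in the dHEP tumors without passing the adjusted test. Pck1, the gluconeogenic enzyme PEPCK, stood at 1335, 670.1, 3259 and 3226 CPM with alcohol and 487, 796 and 188 CPM with chow, a log2 fold change of 2.06 ± 0.64, and overlapped because of tumors dHEP-520 and dHEP-164. In FF tumors Pck1 differed by -0.78 ± 0.64 (interaction 2.85 ± 0.90, adjusted p = 0.84). Of the 14 glucocorticoid and fasting genes, 3 were higher and 1 lower at an unadjusted p under 0.05 (3.36% and 7.55% of all genes), the last being Irs2, an insulin receptor substrate that insulin represses, at 35.3, 13.4, 6.82 and 58.1 CPM with alcohol and 71.2, 42.2 and 56.6 CPM with chow. In complement and coagulation, 3 of 22 genes were higher and 2 lower. Factor XI (F11) stood at 80.3, 63.1, 55.2 and 42.1 CPM with alcohol and 98.4, 146 and 119 CPM with chow and factor IX (F9) at 144, 157.3, 202 and 166 CPM with alcohol and 112, 119.5 and 97.5 CPM with chow, both without overlap and in opposite directions. F11 differed by -0.89 ± 0.25 in FF tumors and by -0.78 ± 0.21 in dHEP non-tumor liver.

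Sums of genes that differ between male and female mouse liver overlapped between the diets. The labels give no sex. The male-biased list summed to 1386 to 17843 CPM in the alcohol tumors (highest in dHEP-549, lowest in dHEP-550) and 4717 to 5439 CPM in the chow tumors. The female-biased list had 3 of 13 genes higher and none lower at an unadjusted p under 0.05 (all genes: 3.36% higher and 7.55% lower). Its median was -0.10, with 5 genes above 0 and 8 below. The list summed to 1794 to 6014 CPM in the alcohol tumors and 1641 to 9563 CPM in the chow tumors. Its members included the acyl-CoA thioesterase Acot3 (6.45, 19.3, 6.90 and 10.9 CPM on alcohol against 1.29, 1.41 and 1.16 CPM on chow) and Cyp17a1 (63.9, 39.5, 58.2 and 1157 CPM against 9.17, 38.1 and 0.810 CPM, highest in tumor dHEP-550), neither overlapping. In the glutathione list 2 of 21 genes were higher and 1 lower at that p, against 3.36% and 7.55% of all genes. The lower gene was Gstm4 (17.6, 29.9, 16.5 and 30.0 CPM with alcohol and 87.8, 23.5 and 125 CPM with chow). Hexokinase 1 (Hk1), which is scarce in adult hepatocytes, read 3.23, 6.47, 5.54 and 2.86 CPM on alcohol against 17.99, 5.96 and 31.3 CPM on chow, with overlap through chow tumor dHEP-164. Serine and one-carbon enzymes had 0 of 17 at an unadjusted p under 0.05, and their sum ranged from 2797 to 14487 CPM in the alcohol tumors, again highest in dHEP-550.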
